A study of Homo sapiens with 8 samples.

Results

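The HOX genes of clusters A to D were followed across HEK293T lines that carried a TET1 catalytic domain with or without a methyl-CpG-binding domain. Members were the array probes whose RefSeq accession maps to HOXA2 through HOXD13, which gave 42 probes for 38 genes among the 19483 named genes of the array. These are 38 of the 39 clustered HOX genes of the reference table. HEK293T is a human embryonic kidney line that carries the SV40 large T antigen. All lines were stable transfectants of the pcDNA6/Myc-His A vector, selected with blasticidin and each grown from a picked colony, so that every array was 1 clone. The 4 constructs were the empty vector (clones 1 and 2), TET1-CDwt, which is the wild-type TET1 catalytic domain (clones 2 and 5), MBD-TET1-CDwt, which joins the methyl-binding domain of MBD2 to it (clones 3 and 10), and MBD-TET1-CDmut, the same fusion with an inactive catalytic domain (clones 9 and 10). The last 2 are called the active and the inactive fusion where both are compared. Clone numbers were given within a construct and do not pair clones across constructs.

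HOX genes encode homeodomain transcription factors that set position along the body axis. They lie in 4 clusters, on chromosome 7 (A), 17 (B), 12 (C) and 2 (D), and their order within a cluster follows the order of their expression from the head to the tail. Their promoters are CpG-rich and are known to be governed by Polycomb and Trithorax complexes as well as by DNA methylation. TET1 oxidizes 5-methylcytosine, and the domain of MBD2 binds methylated CpG, so the question the design asks of each gene is whether its RNA differed where an active or inactive domain was brought to methylated DNA.

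Promoter sequences in RefSeq (GRCh38.p14, 250 bases before to 50 after the start) were found for 20 of the 38 genes. They held a median of 22.5 CG dinucleotides, from 4 (HOXD4) to 44 (HOXA13), beside a median of 14 over all 27305 promoters. The ratio of observed to expected CG had a median of 0.87 in the HOX promoters and 0.58 in all promoters. HOXC4 and HOXC5 share the same window, which was counted for each. The only other gene of the B and C clusters with a window was HOXB1. A CG was present in 95.8% of all promoters, so its presence sets no gene apart. The pair below is shown because CG is the unit that both domains of the fusion act on. It was also chosen because HOXD1 had one of the 2 large differences while HOXD4 was not well above background in any clone. HOXA11, HOXB1 and HOXD12, also well above background in no clone, held 13, 11 and 19 CG. HOXA13, with the most CG, was within 2-fold in every comparison. No window was found for HOXC12, the other large difference. The HOXD1 window lies at chr2:176188418-176188717 on the plus strand and holds 36 CG, and the HOXD4 window lies at chr2:176151300-176151599 on the plus strand and holds 4. Capitals mark each CG on the printed strand, and the matched letters are a description of the windows, whose methylation was not measured here.
HOXD1: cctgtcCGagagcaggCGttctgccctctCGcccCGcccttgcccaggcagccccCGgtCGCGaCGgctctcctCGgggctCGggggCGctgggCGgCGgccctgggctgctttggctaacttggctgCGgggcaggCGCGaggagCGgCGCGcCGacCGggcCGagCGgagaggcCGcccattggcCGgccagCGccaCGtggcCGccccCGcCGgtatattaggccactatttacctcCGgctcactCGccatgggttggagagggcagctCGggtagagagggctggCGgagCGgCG
HOXD4: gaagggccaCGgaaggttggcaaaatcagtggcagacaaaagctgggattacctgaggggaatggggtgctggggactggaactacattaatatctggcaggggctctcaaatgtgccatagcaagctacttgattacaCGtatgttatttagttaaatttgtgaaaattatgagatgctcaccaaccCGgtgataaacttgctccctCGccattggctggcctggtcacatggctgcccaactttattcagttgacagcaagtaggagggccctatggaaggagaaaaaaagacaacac

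Signals are given as log2 intensity minus the 75th percentile of the array, a scale on which 0 is the 75th percentile of the array's probes. Levels of different probes are not compared, since probes differ in brightness. The 8 arrays lay on 2 slides. The empty vector and TET1-CDwt clones shared slide 1 and both MBD fusions shared slide 2, so for a fusion against empty vector the slide and the construct cannot be told apart. TET1-CDwt against empty vector and MBD-TET1-CDwt against MBD-TET1-CDmut are comparisons within a slide. The genes listed as markers of HEK293 cells, NEFL, NEFM, VIM and PAX2, were well above background on all 8 arrays (PAX2 by 1 of its 2 probes). Of 8 markers of other cells, ALB, CD3E, DCN, HBB, KRT5 and PECAM1 were on none, while COL1A1 and 1 of 4 PTPRC probes were on all 8.

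Most HOX genes were transcribed in every line. All 8 arrays showed 33 of the 38 genes well above background by at least 1 probe, with 9 of 10 HOXA genes, 9 of 10 HOXB genes, 8 of 9 HOXC genes and 7 of 9 HOXD genes. Over all 34127 non-control probes 59.6% were well above background on all arrays and 26.8% on none. HOXA11, HOXB1, HOXD4 and HOXD12 were well above background on no array. HOXC5 was well above background on 6 arrays and missed MBD-TET1-CDwt clone 3 and MBD-TET1-CDmut clone 10, with values from -5.51 to -4.55 over the 8 clones. No gene was well above background in both clones of a construct and in neither clone of another. Of the long non-coding RNAs of the clusters, HOXA11-AS (from 2.30 to 2.93), HOTAIR (from -2.64 to -1.93) and HAGLR (from -1.99 to -0.39) were well above background on all 8 arrays, and HOXB-AS3 on none. HOXA11-AS was therefore measured in every clone where HOXA11 was not well above background.

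No HOX probe passed the limma test in any of the 4 comparisons. Of 38 probes tested for 34 genes, 0 had an adjusted p under 0.05, beside 0% of the 22530 probes tested in TET1-CDwt against empty vector, 0.115% in MBD-TET1-CDwt against empty vector, 0% in MBD-TET1-CDmut against empty vector and 0.102% in MBD-TET1-CDwt against MBD-TET1-CDmut. The lowest adjusted p of a HOX probe in limma was 1.00, 0.321, 1.00 and 0.590 in that order. At an unadjusted p under 0.05, 0, 4, 0 and 4 HOX probes passed, beside 2.5%, 6.6%, 2.68% and 6.84% of all probes. HOXB13, HOXC12, HOXD1 and HOXD3 made up the 4 in MBD-TET1-CDwt against empty vector, and HOXA2, HOXB13, HOXD1 and HOXD3 the 4 in MBD-TET1-CDwt against MBD-TET1-CDmut. All 8 of these were higher in MBD-TET1-CDwt. They were named after their values were seen.

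HOXC12, a posterior HOX factor of the C cluster, was at -3.85 in empty vector clone 1 and -3.87 in clone 2. It was at -2.22 and -3.25 in TET1-CDwt clones 2 and 5, at -2.92 and 0.95 in MBD-TET1-CDwt clones 3 and 10, and at -2.77 and -2.41 in MBD-TET1-CDmut clones 9 and 10. Every clone with a TET1 construct was above both empty vector clones, and MBD-TET1-CDwt clone 10 stood far above the other 7. Mean log2 differences from empty vector were 1.13 ± 1.09 (SE) in TET1-CDwt, 2.87 ± 1.09 in the active fusion and 1.27 ± 1.09 in the inactive fusion, with limma adjusted p of 1.00, 0.739 and 1.00. This SE is pooled over the 4 constructs. The standard deviation between clones was 2.74 in the active fusion, beside 0.01 in empty vector, 0.73 in TET1-CDwt and 0.25 in the inactive fusion. With only the groups compared in the fit, TET1-CDwt differed from empty vector by 1.13 ± 0.37 and did not pass. Against MBD-TET1-CDmut the difference was 1.60 ± 1.09 (adjusted p = 0.834), and the groups overlapped. The difference from MBD-TET1-CDmut was -0.33 without MBD-TET1-CDwt clone 10, and that from empty vector fell from 2.87 to 0.94.

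HOXD1, an anterior factor of the D cluster measured by 10 spots of 1 probe, was at -5.47 and -4.86 in the empty vector clones. The lowest signals well above background on those arrays were -5.82 and -6.01, so clone 1 lay near that limit. HOXD1 was at -4.49 and -3.89 in TET1-CDwt, at -3.39 and -1.84 in MBD-TET1-CDwt clones 3 and 10, and at -4.47 and -4.31 in MBD-TET1-CDmut. Both MBD-TET1-CDwt clones were above the other 6, and every clone with a TET1 construct was above both empty vector clones. MBD-TET1-CDwt differed from empty vector by 2.55 ± 0.50 (SE), with a 95% interval from 1.37 to 3.74 and an adjusted p of 0.321 in limma. It differed from MBD-TET1-CDmut, within the slide, by 1.78 ± 0.50, with an interval from 0.59 to 2.96 and an adjusted p of 0.590. TET1-CDwt and MBD-TET1-CDmut differed from empty vector by 0.98 ± 0.50 (adjusted p = 1.00) and 0.78 ± 0.50 (adjusted p = 1.00).

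Both genes had other differences when background was removed by normexp, which also added an offset of 50 intensity units. The values above rest on the background-subtracted signal of the scanning software. When background was instead removed by normexp on median spot and local background signals, HOXD1 in MBD-TET1-CDwt against empty vector was at -0.38 and HOXC12 at 0.66. The median over all probes tested was itself -0.38 there, so HOXD1 lay near the shift of all probes. In that setting 12 spots of empty vector clone 2, 3 of MBD-TET1-CDmut clone 10 and 1 of TET1-CDwt clone 5 had a local background over 50 intensity units above the spot. The values of the first 2 of these arrays correlated with the reported ones at 0.646 and 0.843, beside 0.930 to 0.944 on the other 6, among them TET1-CDwt clone 5. Fitting by maximum likelihood gave nearly the same values (-0.36 and 0.67), with a median over all probes of -0.37. Without these spots, HOXD1 was at 0.88 and HOXC12 at 1.78, still smaller than the reported differences. The median over all probes was then 0.035. The sign of HOXD1 therefore held in 1 of the 3 normexp settings and its size in none. All 3 added the offset, which brings dim signals together by construction. They cannot show whether background removal itself made the differences smaller.

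**Figure D1:**
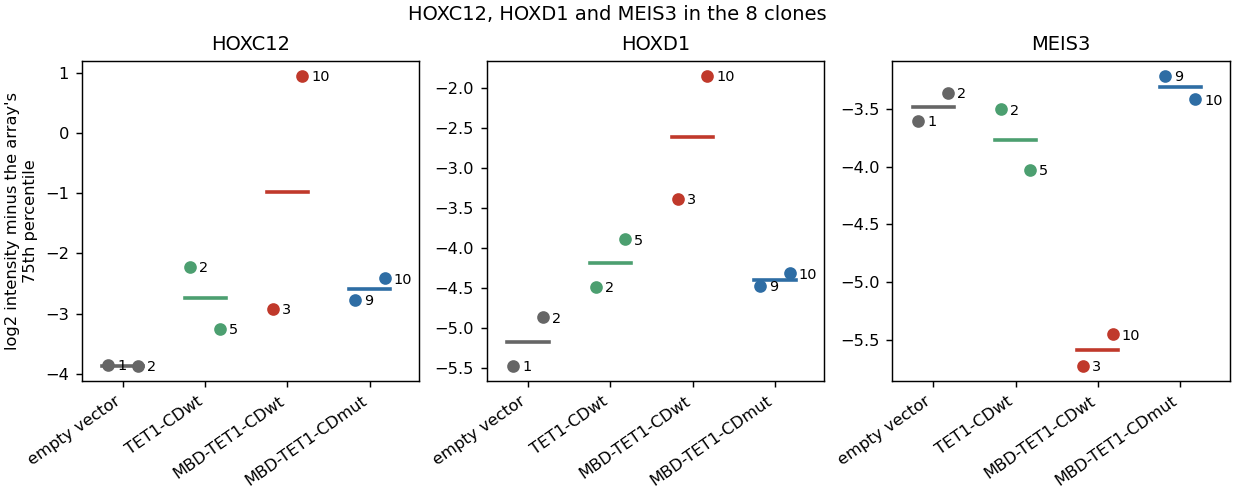
Log2 intensity minus the array's 75th percentile (vertical axes, which differ between panels) of HOXC12, HOXD1 and MEIS3 in the 8 clones; points are clones labelled by number and bars are means of 2 clones. MBD-TET1-CDwt clone 10 was at 0.95 for HOXC12 and at -1.84 for HOXD1, and both MBD-TET1-CDwt clones were below the other 6 for MEIS3.

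By size alone, HOXC12 was the 1 HOX probe at least 2-fold different in TET1-CDwt against empty vector, beside 0.914% of all probes, and in MBD-TET1-CDmut against empty vector, beside 0.772%. HOXC12 and HOXD1 were the 2 in MBD-TET1-CDwt against empty vector, beside 2.21%, and against MBD-TET1-CDmut, beside 2.37%. All were higher in the construct named first, and 0 HOX probes were 2-fold lower. Just below 2-fold were HOXA2 in MBD-TET1-CDwt against MBD-TET1-CDmut (0.99), HOXD1 in TET1-CDwt (0.98) and HOXB5 in MBD-TET1-CDmut (0.97).

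Most HOX probes were higher in each construct than in empty vector. Against empty vector, 37 of 38 HOX probes were higher in MBD-TET1-CDwt, with a median log2 difference of 0.40, while 46.9% of all probes were higher and their median was -0.02. In TET1-CDwt 28 of 38 were higher with a median of 0.14 (all probes 43.7% and -0.03), and in MBD-TET1-CDmut 29 of 38 with a median of 0.18 (45.4% and -0.02). These 3 comparisons share the empty vector clones, and without empty vector clone 1 the counts were 25, 19 and 20 of 38 in the active fusion, TET1-CDwt and the inactive fusion. In the first normexp setting the counts in those 3 constructs were 25, 21 and 24 of 38. There the median over all probes was itself -0.38, -0.43 and -0.19. In the third setting, without the spots of high local background, the counts were 37, 24 and 28 of 38. The count in TET1-CDwt was 14 of 38 without its clone 5. In MBD-TET1-CDwt against MBD-TET1-CDmut 27 of 38 were higher with a median of 0.14 (51.0% and 0.01), and 18 of 38 without MBD-TET1-CDmut clone 10. Both clones lay above both empty vector clones for 5 HOX probes in TET1-CDwt, 12 in the active and 6 in the inactive fusion, beside 10.7%, 13.7% and 15.5% of all probes. They lay below for 2, 0 and 2, beside 17%, 17.2% and 19.3%. Against MBD-TET1-CDmut, 8 HOX probes lay above (18.1% of all) and 1, HOXB9, below (17.9%).

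Clones of a construct differed from each other too. The median HOX difference of the second clone from the first was 0.39 in empty vector, 0.44 in TET1-CDwt, -0.14 in the active fusion and -0.44 in the inactive fusion. In empty vector clone 1, 2 of 38 HOX probes were above their own 8-array mean and the median deviation was -0.37, beside 20 of 38 and 0.03 in clone 2. Without empty vector clone 1 the median HOX difference in MBD-TET1-CDwt fell from 0.40 to 0.16, and those of TET1-CDwt and MBD-TET1-CDmut to -0.03 and 0.03. The absolute difference between the clones of a construct had a median over HOX probes of 0.39 in empty vector, 0.50 in TET1-CDwt, 0.54 in the active fusion and 0.44 in the inactive fusion. Over all probes it was 0.22, 0.26, 0.37 and 0.17. Clone 5 of TET1-CDwt was above clone 2 for 31 of 38 HOX probes, and clone 9 of MBD-TET1-CDmut was above clone 10 for 33 of 38.

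By cluster, MBD-TET1-CDwt was above MBD-TET1-CDmut for 11 of 11 HOXA probes (median 0.35), 1 of 10 HOXB probes (-0.13), 7 of 9 HOXC probes (0.09) and 8 of 8 HOXD probes (0.53). The patterns of HOXA, HOXB and HOXC each changed when a single clone was left out. HOXA was at a median of 0.66 above the 8-array mean in MBD-TET1-CDwt clone 3 and at -0.06 in clone 10, and HOXC at -0.20 and 0.30. Without clone 3, 5 of 11 HOXA probes were higher, with a median of -0.02. For HOXC 9 of 9 probes were higher without clone 3 and 3 of 9 without clone 10. Without MBD-TET1-CDmut clone 9, 7 of 10 HOXB probes were higher, with a median of 0.07. HOXD was at 0.41 and 0.47 in the MBD-TET1-CDwt clones and at 0.06 and -0.23 in the MBD-TET1-CDmut clones, and with any 1 of these 4 clones left out 6 to 8 of 8 HOXD probes were higher. Their median was 0.27 without MBD-TET1-CDmut clone 10. In the first normexp setting 4 of 8 HOXD probes were higher, with a median of 0.04. In the third it was 8 of 8, with a median of 0.33. By position along the cluster, the median differences of MBD-TET1-CDwt from empty vector were 0.32 over 10 probes of paralogs 1 to 4, 0.29 over 11 probes of paralogs 5 to 8 and 0.43 over 17 probes of paralogs 9 to 13.

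**Figure D2:**
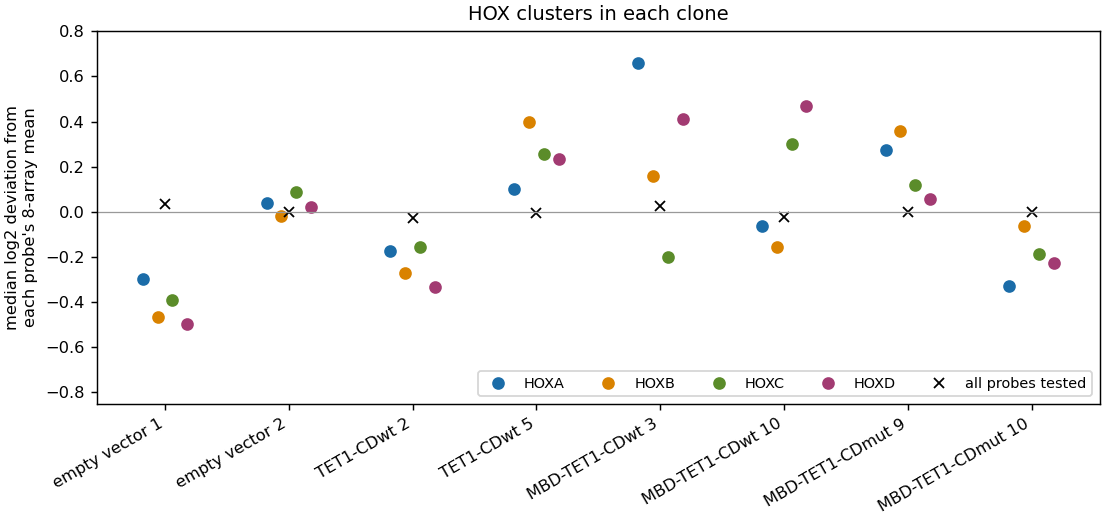
Median log2 deviation from each probe's 8-array mean (vertical axis) of the HOXA, HOXB, HOXC and HOXD probes in each clone, with crosses for all probes tested. Empty vector clone 1 lay between -0.50 and -0.30 in the 4 clusters, and the clones of a construct differed from each other in each construct.

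The other genes named by size had smaller differences. HOXB5 differed from empty vector by 0.97 ± 0.66 in MBD-TET1-CDmut, where its clones were at 1.37 and 0.55 and those of empty vector at -0.72 and 0.70, so the groups overlapped. HOXB8 had a log2 difference of -0.36 ± 0.43 in the active against the inactive fusion. HOXB9, not named by size, was at -0.34 ± 0.25 in that comparison. HOXA2, which patterns the hindbrain, differed by -0.67 ± 0.35 in MBD-TET1-CDmut from empty vector and by 0.99 ± 0.35 in MBD-TET1-CDwt from MBD-TET1-CDmut. Its values were -2.89 and -2.03 in empty vector, -2.45 and -2.54 in TET1-CDwt, -2.01 and -2.27 in the active fusion, and -2.76 and -3.50 in the inactive fusion. The remaining falls from empty vector among genes named by size were within 1 SE of 0. They were HOXC5 (-0.28 ± 0.34) and HOXD3 (-0.12 ± 0.19) in TET1-CDwt, HOXC10 (-0.11 ± 0.25) in MBD-TET1-CDwt and HOXC11 (-0.25 ± 0.39) in MBD-TET1-CDmut, each against empty vector.

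Of the cofactors that bind DNA with HOX proteins, 1 of 10 probes tested passed. MEIS3, a homeodomain cofactor of the TALE class, was at -3.60 and -3.36 in empty vector, -3.50 and -4.03 in TET1-CDwt, -5.73 and -5.45 in the active fusion and -3.21 and -3.42 in the inactive fusion. It fell by 2.11 on the log2 scale against empty vector (limma adjusted p = 0.044) and by 2.27 against MBD-TET1-CDmut (adjusted p = 0.034). The call rested on the fit. It passed under quantile normalization and median scaling in both comparisons, and in 1 of the 8 fits that left out a clone. It was lost in the normexp settings, without the filter on dim probes, with the compared groups alone and with a trended robust prior, while the sign was negative in all. Its probe was well above background on 7 of the 8 arrays and missed MBD-TET1-CDwt clone 3, so 1 of the 2 active fusion clones measured it. With that clone raised to the array's lowest signal well above background the log2 differences were -2.03 and -2.19. Clone 10 of the active fusion, at -5.45, lay just above the lowest such signal of its own array, -5.51. Both active fusion values were therefore near the limit of detection.

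No other list had a probe that passed. That held for 33 probes of Polycomb genes, which keep HOX genes silent, 21 of Trithorax genes and related activators, 10 of retinoid and CDX inducers, 8 of genes beside the clusters and 3 of HOX long non-coding RNAs. Their median differences in MBD-TET1-CDwt against empty vector were 0.00, -0.02, 0.11, 0.01 and 0.34. HAGLR, transcribed from the HOXD cluster, was at -1.99 and -1.37 in empty vector, -1.32 and -1.02 in TET1-CDwt, -1.03 and -0.39 in the active fusion and -1.20 and -1.35 in the inactive fusion, a difference of 0.97 in MBD-TET1-CDwt from empty vector that did not pass. In that comparison the extremes of the other lists, each from 1 probe, were BMI1 (0.34) and PHC1 (-0.80) among Polycomb genes, RBBP5 (0.37) and KMT2A (-0.69) among activators, and the retinoic acid receptors RARG (0.58) and RARB (-0.07) among inducers. Other probes of these genes differed less. The log2 difference was 0.07 at the other BMI1 probe, -0.36 to -0.12 at the other 3 of PHC1, -0.13 at the other of RBBP5, -0.47 to -0.17 at the other 3 of KMT2A and 0.0052 at the other of RARB. Among flanking genes SKAP2 was at 0.19 and CALCOCO1, the largest fall measured in both groups, at -0.76. EVX2 was well above background on 4 of the 8 arrays and in neither active fusion clone. It was at -5.51 and -5.89 in the inactive fusion. In empty vector and TET1-CDwt, on the other slide, it was from -5.48 to -5.43. None of these passed the test.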

How the data were processed

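RNA of 8 HEK293T clones was labelled with Cy3 and hybridised to 1-colour Agilent Human Gene Expression 4x44K v2 arrays. The deposited scanner files hold intensity values that the authors produced with Agilent Feature Extraction (9.5.1 in the submitters' processing notes, 10.7.3.1 in the file headers). The deposited series table held the same intensity values and was not analysed separately. The software's background-subtracted signal was averaged over spots of a probe on the log2 scale, without control spots and outlier-flagged spots, and scaled to the 75th percentile of each array, which was 328 to 527 intensity units. A probe was well above background where over 50% of its spots were flagged so, and no spot was saturated. Accessions named 74.5% of the probes through RefSeq.

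The 4 group means were fitted with limma 3.58.1 in R 4.3.3 over the 22530 probes that both clones of some construct showed well above background, with 4 residual degrees of freedom and Benjamini-Hochberg adjustment. With 2 clones a construct, the number of arrays limits precision, and p-values measure the spread between clones, pooled over the 4 constructs. The fit was tested on simulated data. A probe was counted as 2-fold different where both arrays of the higher group passed that flag, with dim signals of the lower group raised to the lowest signal well above background. List genes were named by the probe with the extreme value.

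The members and gene lists were chosen with earlier results of these data known. Genes were named if called, 2-fold different, detected in 1 construct and not another, discordant between probes past 2-fold, or among the 2 largest rises and falls of a comparison, and list genes if called or otherwise the largest rise and fall. The genes named at an unadjusted p were chosen outside that rule. Normalization, filter, samples in the fit, prior, background correction and left-out clones were varied. The planned normexp on mean signals could not be run, since the files hold no mean signal column, and median signals were used. The other normexp settings were added after the first had reversed the sign of HOXD1.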

Additional observations from a re-analysis of the deposited data

How the results depend on the processing

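No paired analysis was possible because clones are not paired across constructs. No HOX probe was called under any alternative that kept both clones of every construct. Over left-out clones, HOXC12 and HOXD1 passed only in MBD-TET1-CDwt against empty vector without MBD-TET1-CDwt clone 3. More probes passed over the whole array in that fit too. It leaves clone 10 alone, assumed to vary like the other groups and, for HOXC12, far above the other clones. Its calls are therefore not read as a result about HOX genes. The detection counts stayed within 1.5 times under each alternative.

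In all, 3 normexp settings on median signals were run, all chosen after the data were seen. The default and maximum likelihood settings were followed by one without spots whose local background exceeded the spot by over 50 units, because the sign of HOXD1 had reversed. All 3 are given in that order. HOX probes at least 2-fold different numbered 11, 11 and 0 in TET1-CDwt, 8, 7 and 1 in MBD-TET1-CDwt and 2, 2 and 0 in MBD-TET1-CDmut against empty vector, and 0, 0 and 1 in MBD-TET1-CDwt against MBD-TET1-CDmut. In TET1-CDwt the 11 were 6 higher and 5 lower. In the first setting the median over all probes was -0.43, -0.38, -0.19 and -0.21 in these 4 comparisons. The share of all probes at least 2-fold different is not given for these settings, so the counts are not read as particular to HOX genes. HOXD1 was at -1.25, -1.25 and -0.0076 in TET1-CDwt and at -0.38, -0.36 and 0.88 in MBD-TET1-CDwt against empty vector, and at -0.019, -0.023 and 0.68 against MBD-TET1-CDmut. HOXC12 was at -0.77, -0.77 and 0.34 in TET1-CDwt and at -0.17, -0.16 and 0.54 in MBD-TET1-CDmut, and HOXC11 in MBD-TET1-CDmut reversed to 0.039 in the third. In the first and second settings the arrays of empty vector clone 2 and MBD-TET1-CDmut clone 10 stood apart. In all 3, the offset of 50 units brings dim signals together by construction, and whether that accounts for the smaller differences was not tested.

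Quantile normalization gave 2 HOX probes at least 2-fold different in TET1-CDwt, and median scaling gave 2 in TET1-CDwt and another 2 in the inactive fusion. Over left-out clones these counts ranged from 1 to 4 in TET1-CDwt, 2 to 7 in MBD-TET1-CDwt and 2 to 4 in MBD-TET1-CDmut against empty vector, and 2 to 5 against MBD-TET1-CDmut. The share of all probes is not given for these fits either, so these counts are not read as particular to HOX genes. The median HOX difference against MBD-TET1-CDmut ranged from -0.041 to 0.37 over left-out clones. Single genes reversed when a clone was left out. HOXD3 in TET1-CDwt ranged from -0.29 to 0.061 (without empty vector clone 1 and 2), and HOXC10 in MBD-TET1-CDwt from -0.39 (without its clone 10) to 0.17 (without its clone 3), with 0.049 without empty vector clone 2. Against MBD-TET1-CDmut, HOXB5 ranged from -0.76 (without MBD-TET1-CDmut clone 10) to 0.062 (without clone 9), with 0.050 without MBD-TET1-CDwt clone 10, and HOXC12 from -0.33 to 3.54 (without MBD-TET1-CDwt clone 10 and 3). The causes were not tested.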
